A study of Mus musculus with 31 samples.

Results

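The comparison described here is that of lungs after 4 weeks of cigarette smoke with lungs after 4 weeks of room air. The samples were chosen by their titles, which gave 4 smoke and 4 control arrays, 8 of the 31 in the study. All mouse miRNAs on the array were taken, 611 of the 650 names it holds. The mice of every group were female BALB/c, a common inbred laboratory strain with no engineered allele named in the labels, and the groups differed in exposure (smoke or room air) and in its length (4, 6, 8 or 12 weeks). Neither mouse age, nor the amount of smoke, nor whether each array holds its own animal is given in the sources used here. The p-values therefore reflect only how these samples spread, and that spread may be technical. Whole lungs were used, so for any miRNA fewer cells of a type and less RNA per cell cannot be told apart.

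A microRNA (miRNA) is a short RNA cut from a hairpin precursor. It guides a silencing complex to messenger RNAs, mainly through bases 2 to 8 from its 5′ end, the seed, so miRNAs with the same seed share many targets. In lung, some miRNAs are induced when inflammatory signalling is switched on, some mark leukocytes, and others mark epithelium, endothelium or muscle.

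In lungs of mice exposed to smoke for 4 weeks, 12 of 254 tested miRNAs rose and 0 fell. miR-135b-5p, a miRNA induced through interleukin-1 receptor signalling in mouse lung, rose the most, by 3.95 ± 0.15 log2 (SE, n = 4 smoke and 4 control arrays). It was followed by miR-146b-5p (1.28 ± 0.12 log2), miR-132-3p (1.18 ± 0.22) and miR-21-5p (0.97 ± 0.13). The other 8 were miR-135a-1-3p, miR-223-3p, miR-139-3p, miR-1897-5p, miR-183-5p, miR-182-5p and both arms of miR-31, at 0.50 to 0.91 log2. Of the 9 tested members of a list of inflammation-responsive miRNAs, chosen with earlier results of these data known, 6 rose.

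The mature sequences of the miRNAs that rose are shown because shared seeds and shared precursors group them. They were read from RefSeq (mouse build GRCm38.p6), written 5′ to 3′ with the seed in capitals. Of the 611 mouse names, 497 were matched to a RefSeq sequence, and 211 of the 254 tested names have one. miR-146b-5p has the seed of miR-146a-5p and differs from it at 2 of 22 positions, and miR-132-3p has the seed of miR-212-3p and differs from it at 5 of 22.
miR-146b-5p: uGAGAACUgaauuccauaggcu
miR-146a-5p: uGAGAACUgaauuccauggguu
miR-132-3p: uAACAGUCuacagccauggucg
miR-212-3p: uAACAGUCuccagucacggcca

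The remaining sequences have a seed of their own among the miRNAs that rose. miR-31-5p and miR-31-3p are the arms of 1 precursor on chromosome 4, and miR-183-5p and miR-182-5p come from neighbouring genes on chromosome 6. miR-21-5p carries the name miR-21a-5p in RefSeq. miR-135b-5p and miR-1897-5p are given by name.
miR-21-5p: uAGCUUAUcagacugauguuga
miR-31-5p: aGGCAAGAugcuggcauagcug
miR-31-3p: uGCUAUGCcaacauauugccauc
miR-183-5p: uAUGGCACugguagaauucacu
miR-182-5p: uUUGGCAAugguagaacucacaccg
miR-223-3p: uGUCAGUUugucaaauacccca
miR-139-3p: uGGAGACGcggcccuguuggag
miR-135a-1-3p: uAUAGGGAuuggagccguggcg

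In that build the mature strands lie at chr19:46342790-46342811 (miR-146b-5p, plus strand), chr11:75173723-75173744 (miR-132-3p, plus) and chr11:86584120-86584141 (miR-21-5p, minus). miR-31-3p lies at chr4:88910577-88910599 and miR-31-5p at chr4:88910614-88910635, both on the minus strand. miR-182-5p lies at chr6:30165962-30165986 and miR-183-5p at chr6:30169711-30169732, also minus.

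The quantity given per array is the log2 scaled signal: the scanner's processed signal of a miRNA's brightest probe, divided by the 75th percentile of that array, taken over 385 probes that every one of the 31 arrays detected. Scaled signals under a floor of -6.74 log2 were set to it. Levels are compared between arrays for 1 miRNA and not between miRNAs. Of the 611 mouse miRNAs, 314 were not well above background on any of the 8 arrays, 212 were detected on all 8, and 252 were detected on at least 3 of the 4 arrays of either group and were tested, with 2 viral names. The 75th percentile signal ran from 1201 to 2875 over the 8 arrays, and 236 to 256 mouse miRNAs were detected on smoke arrays and 224 to 296 on control arrays. The number of arrays limits the precision. The replicate number equals the slide, so each of the 4 slides holds 1 smoke and 1 control array of 4 weeks. The smoke arrays sit in the first line of positions and the controls in the second, so position on the slide and smoke cannot be told apart. Of the lung's own markers, miR-126-3p of endothelium stood at 4.68 to 4.90 log2 on all 8 arrays and miR-200c-3p of epithelium at 0.05 to 1.33.

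Smoke arrays 2 and 3 stood apart from smoke arrays 1 and 4. The median absolute difference over 273 miRNAs was 0.044 log2 between smoke arrays 1 and 4 and 0.605 between arrays 2 and 4; the closest pair of the series, 12 weeks smoke arrays 1 and 2, differed by 0.043. The median standard deviation among the 4 smoke arrays (0.301 log2) was the largest of the 8 groups of the study, against 0.124 among the 4 control arrays. On smoke arrays 2 and 3 miRNAs rich in G and C were relatively high. The slope of an array's deviation on GC content was 0.19 and 0.13 log2 per 10 percentage points there, and between -0.10 and -0.02 on the other 6 arrays, over 211 miRNAs measured on shared arrays. Among the controls, arrays 1 and 4 carried more of the striated muscle miRNAs. Values without these arrays are given for the results that they moved most, and array weights, a GC correction and slide as a block were tried as well. Without smoke arrays 2 and 3 the smoke group is arrays 1 and 4 alone, a pair that lay close together. The SE and adjusted p of those fits therefore leave out the wider spread of all 4 smoke arrays.

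Smoke and control arrays of 4 weeks were compared with limma on those 8 arrays alone (6 residual degrees of freedom), with Benjamini-Hochberg adjustment over the 254 miRNAs and a threshold of adjusted p 0.05. The 12 calls are 4.72% of the miRNAs tested, all higher in smoke; 79 had an unadjusted p under 0.05, of which 60 were higher and 19 lower, and the median difference over all 254 was 0.22 log2. Each of the 12 was higher in smoke on all 4 slides, and on every smoke array than on any control array. That separation was common here: 64 of the 254 (25.2%) lay higher on every smoke array than on every control array, and 17 (6.69%) lower.

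**Figure D1:**
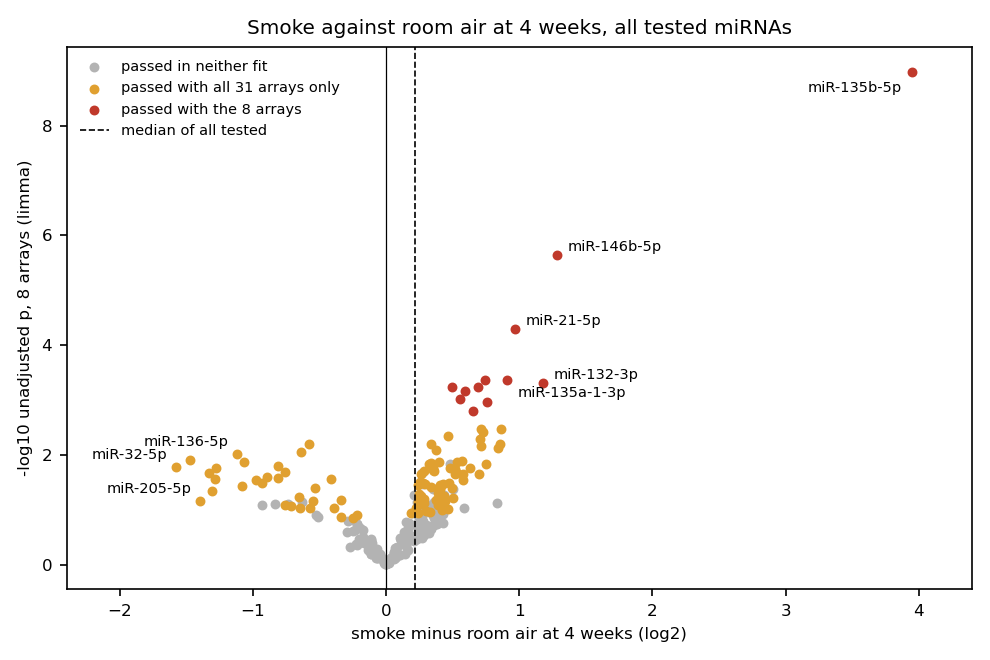
Difference between smoke and control at 4 weeks (x axis, log2) against the unadjusted limma p of the 8 arrays (y axis, -log10) for the 254 tested miRNAs, with miRNAs that passed with the 8 arrays in red and those that passed in a fit over all 31 arrays only in amber. The 12 red points all lie to the right, with miR-135b-5p at 3.95 log2, and the dashed line marks the median of 0.22 log2.

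miR-135b-5p was at the floor on all 4 control arrays, and its probe was well above background on 1 of them. On smoke arrays 1 to 4 it stood at -2.51, -3.15, -2.90 and -2.58 log2. In processed scanner signal these are 427, 135, 169 and 376 units, against 6.87 to 18.5 on the control arrays. The groups did not overlap. The difference of 3.95 ± 0.15 log2 (limma adjusted p 2.64e-07) is measured against the floor, with no spread among the controls, so its size depends on how dim signals are treated. With a floor 4 times higher it was 1.95 ± 0.14 log2 (limma adjusted p 0.000785). It did not pass with the normexp background correction (0.90 ± 0.89 log2, 0.497) or with the scanner's sum per miRNA (7.97 ± 1.65 log2, 0.0518).

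miR-146b-5p, a close relative of the NF-kB-induced miR-146a-5p that represses adaptor proteins of Toll-like receptor signalling, stood at -0.52, -0.76, -0.80 and -0.87 log2 on control arrays 1 to 4. On smoke arrays 1 to 4 it stood at 0.44, 0.70, 0.59 and 0.45 log2. The smoke arrays lay close together and well above the controls, 2.43-fold on average (1.28 ± 0.12 log2, limma adjusted p 0.000292). Its seed partner miR-146a-5p ran from 0.38 to 0.91 log2 in controls and from 0.94 to 1.49 in smoke. The groups of miR-146a-5p did not overlap, but the lowest smoke array exceeded the highest control array by little and the difference of 0.48 ± 0.17 log2 did not pass (0.110).

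miR-132-3p, whose gene is switched on by the transcription factor CREB, lay near the floor in controls, at -6.28 to -6.12 log2. On smoke arrays 1 to 4 it stood at -5.42, -4.46, -4.78 and -5.45 log2, so arrays 2 and 3 were the highest. The difference was 1.18 ± 0.22 log2 (2.26-fold, limma adjusted p 0.0188), and 0.77 ± 0.07 log2 (0.00159) without smoke arrays 2 and 3. With the higher floor it was 0.069 log2 (0.558). miR-132-3p was not detected on all 8 arrays. It did not pass with quantile scaling (1.11 log2, limma adjusted p 0.0606), with the scanner's sum per miRNA (1.37, 0.0540) or without control arrays 1 and 4 (1.18, 0.186). In all it passed in 14 of 26 alternatives. miR-212-3p, made from the same gene locus and with the same seed, ran from -5.72 to -5.55 log2 in controls and from -6.10 to -5.06 in smoke; the groups overlapped and 0.23 ± 0.21 log2 did not pass (0.431). With smoke arrays 1 and 4 alone against the controls it was 0.45 ± 0.11 log2 and passed (limma adjusted p 0.0457).

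miR-21-5p, abundant in many tissues and raised in inflamed and fibrotic ones, was bright on all arrays. It stood at 3.49, 3.28, 3.39 and 3.34 log2 on control arrays 1 to 4 and at 4.49, 4.03, 4.32 and 4.53 on smoke arrays 1 to 4. Every smoke array was higher, arrays 1 and 4 the most, and the mean rose 1.95-fold (0.97 ± 0.13 log2, limma adjusted p 0.0044). Scaled by the 75th percentile of all probes the difference was 0.87 log2 and did not pass (0.0575). In the deposited series table it was 0.69 log2 (0.112), and with quantile scaling 0.52 ± 0.23 log2 (limma adjusted p 0.199). Nor did miR-21-5p pass with no scaling between arrays. In all it passed in 21 of 27 alternatives.

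Both arms of the miR-31 precursor rose, the 5p arm by 0.59 ± 0.12 log2 (limma adjusted p 0.0196) and the 3p arm by 0.50 ± 0.10 log2 (0.0188). miR-31-5p ran from -3.65 to -3.27 log2 in controls and from -2.94 to -2.75 in smoke. miR-31-3p ran from -5.65 to -5.58 log2 in controls and from -5.21 to -5.05 in smoke. The groups did not overlap in either arm. The 5p arm passed in 4 of 8 fits with 1 array left out, and so did the 3p arm. The 3p arm did not pass with the percentile of all probes (0.40 log2, 0.207), with quantile scaling (0.31, 0.133) or in the deposited series table (0.28, 0.179), and the 5p arm did not with quantile scaling (0.58, 0.0606). miR-31 is known from epithelial cells and acts on integrin and Wnt pathway messages.

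miR-183-5p and miR-182-5p, members of a cluster known from sensory epithelium, rose together. miR-183-5p averaged -4.19 ± 0.13 log2 in controls (SD, n = 4) and ran from -3.77 to -3.21 in smoke, above every control, a difference of 0.65 ± 0.15 log2 (limma adjusted p 0.0331). miR-182-5p was dim, at -6.36 to -6.29 log2 in controls and -5.95 to -5.59 in smoke (0.56 ± 0.11 log2, 0.0246), and 3 of 4 control arrays had it above background. It did not pass with the percentile of all probes (0.0654), with quantile scaling (0.0606) or in the deposited series table (0.0552). miR-183-5p did not pass with quantile scaling (0.57 log2, limma adjusted p 0.0606), the higher floor (0.65, 0.0633) or the scanner's sum per miRNA (0.56, 0.0842). Without control arrays 1 and 4 it did not pass either (0.70 ± 0.19 log2, 0.186). In all miR-183-5p passed in 15 of 27 alternatives and miR-182-5p in 11 of 26. Smoke arrays 2 and 3 were the highest for both. The third member of the cluster, miR-96-5p, differed by -0.12 ± 0.24 log2 (0.730), lower on slides 2 and 3 and higher on slides 1 and 4.

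miR-223-3p, the miRNA of neutrophils and other myeloid cells, rose 1.69-fold (0.76 ± 0.16 log2, limma adjusted p 0.0251). It stood at 0.53, 0.69, 0.60 and 0.34 log2 on control arrays 1 to 4 and at 1.12, 1.69, 1.31 and 1.06 on smoke arrays 1 to 4. All smoke arrays were above all controls, with array 2 the highest. Without smoke arrays 2 and 3 the difference was 0.55 ± 0.11 log2 (0.0294). miR-223-3p did not pass with quantile scaling (0.65 log2, limma adjusted p 0.0606), with the higher floor (0.76, 0.0633) or with the scanner's sum per miRNA (0.65, 0.0842). Without control arrays 1 and 4 it did not pass either (0.65 ± 0.20 log2, 0.327). In all it passed in 14 of 27 alternatives.

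The remaining 3 were dim. miR-135a-1-3p, the other arm of a precursor related to that of miR-135b, rose by 0.91 ± 0.17 log2 (limma adjusted p 0.0188), miR-139-3p by 0.74 ± 0.14 (0.0188) and miR-1897-5p by 0.69 ± 0.13 (0.0188). Their controls lay between -6.45 and -5.76 log2. In all, 7 of the 12 had a control mean within 2 log2 of the floor. For miR-135a-1-3p 2 of its 4 probes, and for miR-139-3p and miR-182-5p 1 of 2, were at the floor on all 8 arrays. No probe of the 12 pointed the other way. miR-1897-5p did not pass with the percentile of all probes (0.59 log2, limma adjusted p 0.118) or with quantile scaling (0.59, 0.0787), and miR-139-3p did not in the deposited series table (0.27, 0.0690).

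**Figure D2:**
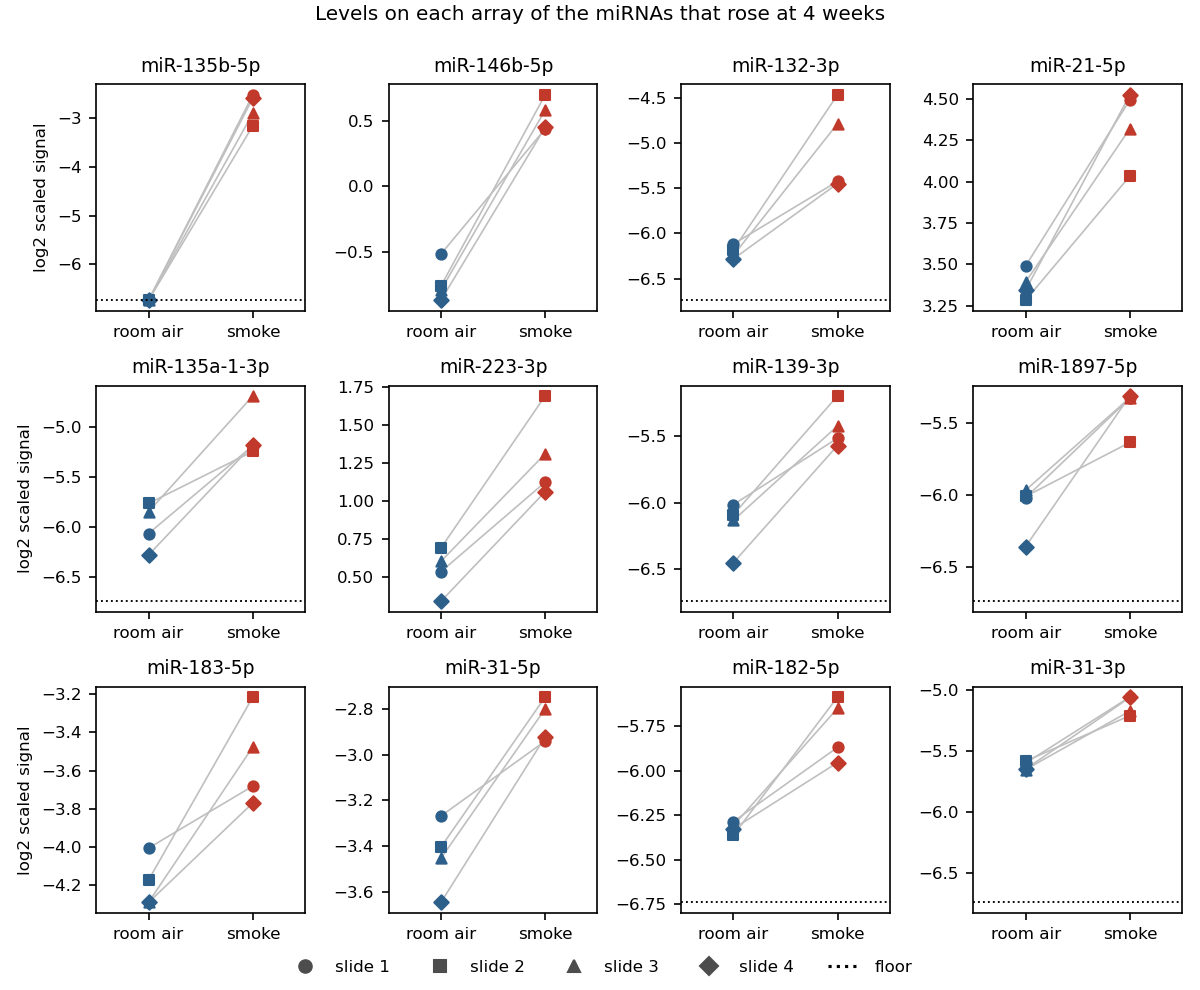
Log2 scaled signal (y axis, a scale of its own in each panel) of the 12 miRNAs that rose, on the 4 control and 4 smoke arrays, with a line joining the arrays of 1 slide and a dotted line at the floor of -6.74 log2 where the controls come within 2 log2 of it. Every line rises, and on the smoke side slides 2 and 3 are apart from slides 1 and 4 in panels such as miR-132-3p and miR-21-5p.

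The count of calls depended on single arrays. It was 3 without control array 1, 4 without control array 2, 3 without control array 3 and 8 without control array 4. It was 13 without smoke array 1, 16 without smoke array 2, 3 without smoke array 3 and 19 without smoke array 4. miR-135b-5p, miR-146b-5p and miR-21-5p passed in all 8 of these fits, and each of the others in 3 to 5; the 4 calls without control array 2 were these and miR-135a-1-3p. Without smoke arrays 2 and 3 together 31 miRNAs passed (24 higher, 7 lower), and without control arrays 1 and 4 only miR-135b-5p and miR-146b-5p did. With slide as a block 21 passed (18 higher, 3 lower), all 12 among them. The miRNAs that fell with the block were miR-33-5p (-1.28 ± 0.21 log2, limma adjusted p 0.0234), miR-136-5p (-1.12 ± 0.16, 0.0202) and miR-489-3p (-0.89 ± 0.17, 0.0372). Without smoke arrays 2 and 3, and with no block, miR-33-5p differed by -0.51 ± 0.31 log2 (limma adjusted p 0.335) and miR-136-5p by -0.51 ± 0.24 (0.244). miR-489-3p is outside the naming rule and was named after its values were seen.

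The 9 tested members of the inflammation-responsive list had a median difference of 0.86 log2, against 0.22 over all tested, and 6 of 9 rose, where 4.72% of all tested did. The medians were 0.56 and 0.047 log2 without smoke arrays 2 and 3. Like the other lists, this one was chosen with earlier results of these data known, so its share of rises is a description and no test. The 6 are both arms of miR-31 with miR-21-5p, miR-132-3p, miR-146b-5p and miR-135b-5p. The 3 others were miR-146a-5p, miR-212-3p (above) and miR-155-5p, the miRNA of activated leukocytes, which differed by 0.86 ± 0.24 log2 without passing (limma adjusted p 0.0820). miR-155-5p ran from -4.80 to -4.32 log2 in controls and averaged -3.66 ± 0.50 (SD, n = 4) in smoke, where arrays 2 and 3 were the highest and all 4 lay above the controls. It passed with slide as a block (0.0328). Without smoke arrays 2 and 3 it was 0.47 ± 0.14 log2 (0.0934) and without control arrays 1 and 4 it was 0.72 ± 0.32 (0.537). All 9 differences were above 0, and 4 of 9 with a normexp background correction, where the median over all 254 was -0.70 log2 and that of the list -0.27.

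The leukocyte list was divided. Of 6 tested members 1 rose, miR-223-3p, against 4.72% of all tested. The median was 0.55 log2, 0.33 without smoke array 2 and 0.18 without smoke arrays 2 and 3. miR-342-3p, of lymphoid and myeloid cells, ran from -2.00 to -1.59 log2 in controls and from -1.29 to -0.29 in smoke (0.86 ± 0.22 log2, limma adjusted p 0.0620), and its 5p arm differed by 0.75 ± 0.25 (0.110). With slide as a block both arms passed (limma adjusted p 0.0240 and 0.0463). That made 3 of 6, where 21 of all 254 passed with the block, 18 of them higher. Without smoke arrays 2 and 3 neither arm passed (0.52 log2, 0.0511, and 0.33, 0.215). Both arms of miR-142, found in all blood lineages, went the other way. miR-142-3p stood at 2.71 to 2.83 log2 on the controls and at 2.40, 0.06, 1.07 and 2.48 on smoke arrays 1 to 4, a difference of -1.28 ± 0.49 log2 (0.125), and miR-142-5p differed by -1.06 ± 0.35 (0.110). The low values of miR-142-3p are those of smoke arrays 2 and 3. With smoke arrays 1 and 4 alone against the controls miR-142-3p differed by -0.35 ± 0.06 log2 and miR-142-5p by -0.38 ± 0.06, and both passed (limma adjusted p 0.0294 and 0.0209). The linear scaled signals of the list's 6 members summed to 5.70 to 8.75 on smoke arrays and 9.27 to 9.59 on control arrays, a sum that mostly follows the bright miR-142-3p.

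Of 14 epithelial miRNAs 2 rose, miR-183-5p and miR-182-5p, against 4.72% of all tested. The median was 0.26 log2, and 0.093 without smoke arrays 2 and 3. The miR-200 members that share the seed AAUACUG, which repress the mesenchymal factors Zeb1 and Zeb2, differed by 0.37 ± 0.11 log2 (miR-429-3p, limma adjusted p 0.0897), 0.43 ± 0.20 (miR-200b-3p, 0.172) and 0.57 ± 0.22 (miR-200c-3p, 0.127). The 2 members with the other seed of the family, AACACUG, went the other way without passing. miR-200a-3p differed by -0.28 ± 0.19 log2 and miR-141-3p by -0.93 ± 0.48. On smoke arrays 1 and 4 miR-200b-3p stood at 1.13 and 1.10 log2, just above the highest control (1.09), and on arrays 2 and 3 at 1.98 and 1.60. miR-205-5p, of basal and squamous epithelium, stood at -3.69 and -3.54 log2 on control arrays 1 and 4 and at -6.27 and -6.34 on controls 2 and 3, with the smoke arrays at -6.74 to -5.66. miR-203-3p, of stratified epithelium, showed the same split among controls, -1.30 and -1.64 against -2.95 and -2.91 log2. Neither passed, at -1.40 ± 0.68 (0.185) and -0.72 ± 0.37 log2 (0.193), and without control arrays 1 and 4 miR-205-5p differed by -0.05 ± 0.32 log2.

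The striated muscle miRNAs split the controls the same way. miR-133a-3p stood at -1.26, -2.31, -2.43 and -0.63 log2 on control arrays 1 to 4 and at -2.72 to -2.51 on the smoke arrays, and miR-1a-3p at 1.80, 0.35, 0.36 and 2.28 on the controls and 0.21 to 0.52 on the smoke arrays. Control arrays 1 and 4 are high for both. None of the 5 tested members passed (smallest limma adjusted p 0.110, for miR-133a-5p at -1.33 ± 0.48 log2), all 5 differences were under 0 and their median was -0.93 log2. Without control arrays 1 and 4 the median was -0.22 log2, with 1 of 5 above 0. The summed linear level of these 5 miRNAs ran from 1.84 to 6.77 on control arrays and from 1.66 to 1.87 on smoke arrays. miR-206-3p, miR-208a-3p and miR-499-5p, also muscle miRNAs, were not detected on enough arrays to be tested.

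Other marker lists gave no call with the 8 arrays. miR-126-3p and miR-126-5p of endothelium differed by 0.01 ± 0.10 and -0.05 ± 0.11 log2. miR-451 of red cells differed by 0.11 ± 0.12 log2. miR-144-3p, from the same precursor transcript as miR-451, stood at 0.05 to 0.78 log2 in controls and at 0.14, -2.52, -1.46 and 0.15 on smoke arrays 1 to 4, so 2 arrays carry its difference of -1.31 ± 0.56 log2. Of 6 smooth muscle and mesenchymal miRNAs the median was 0.09 log2, and miR-199b-5p, of mesenchymal cells, was lower on every smoke array (-0.53 ± 0.22 log2, limma adjusted p 0.141), most on arrays 2 and 3. miR-122-5p of liver was at the floor on all 4 controls and on smoke array 4.

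**Figure D3:**
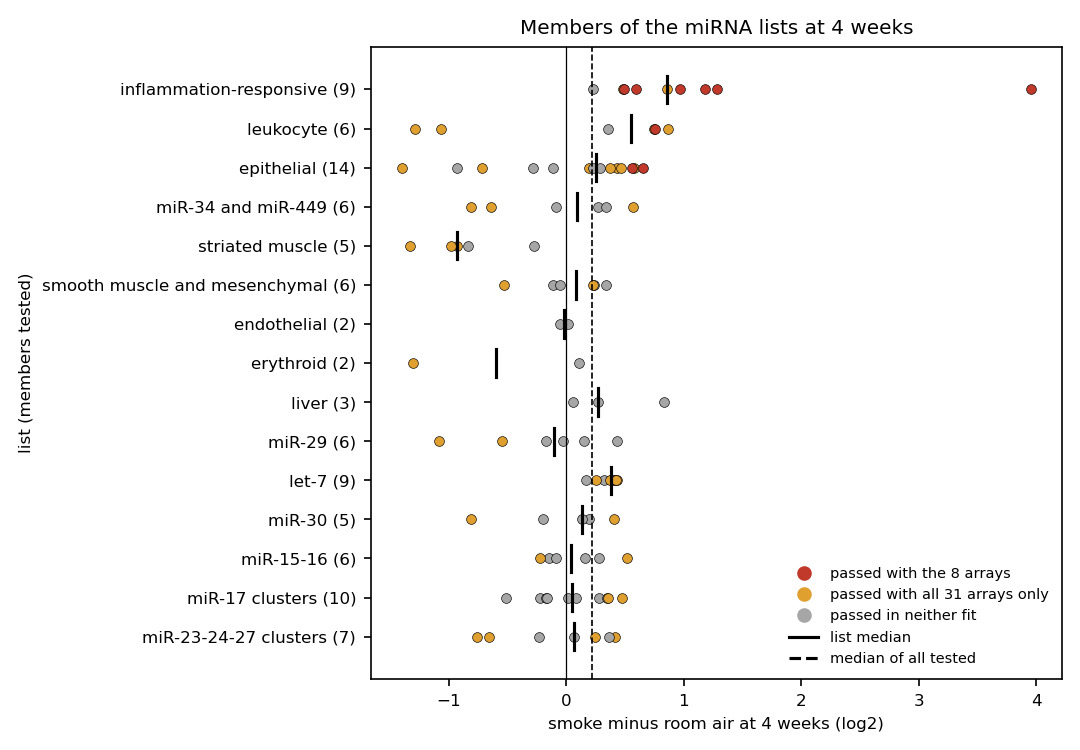
Difference between smoke and control at 4 weeks (x axis, log2) of each tested member of 15 lists of miRNAs (y axis, members tested in brackets), with short black lines at list medians and the dashed line at the median of all 254. Red points passed with the 8 arrays and lie in the inflammation-responsive, leukocyte and epithelial lists; the striated muscle members all lie under 0.

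Among families with a shared seed, the let-7 family, which represses growth and cell cycle messages, had all 9 tested members above 0, from 0.17 to 0.43 log2 with a median of 0.38, and 7 of 9 with quantile scaling; none passed with the 8 arrays. Over all 254 tested, 172 were above 0. let-7a-5p stood at 3.78 to 4.12 log2 on the controls and at 4.01, 4.98, 4.57 and 3.94 on smoke arrays 1 to 4. Smoke arrays 1 and 4 lay within the controls and arrays 2 and 3 above them. Without arrays 2 and 3 the family's median was 0.09 log2, with 6 of 9 above 0. The miR-34 and miR-449 family, of p53 responses and multiciliated cells, was divided, with miR-34a-5p at 0.57 ± 0.18 log2 (limma adjusted p 0.110), miR-34b-5p at -0.81 ± 0.27 (0.110), miR-34c-5p at -0.64 ± 0.19 (0.0930) and miR-449a-5p at -0.09 ± 0.15 (0.672). miR-34a-5p, a p53 target, stood at 0.55 and 0.44 log2 on smoke arrays 1 and 4, -0.25 and -0.03 on arrays 2 and 3, and -0.46 to -0.26 in controls. With smoke arrays 1 and 4 alone against the controls, miR-34a-5p differed by 0.89 ± 0.08 log2 (limma adjusted p 0.00159) and miR-34c-5p by -0.32 ± 0.08 (0.0433).

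Members of a seed group could part widely. Whether base composition bears on this was not tested. miR-25-3p, miR-92a-3p and miR-32-5p share their seed, and the sequences are shown with their share of G and C, which is 50.0%, 57.1% and 31.8% in that order.
miR-25-3p: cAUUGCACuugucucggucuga
miR-92a-3p: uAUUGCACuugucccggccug
miR-32-5p: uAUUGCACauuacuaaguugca

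miR-25-3p differed by 0.47 ± 0.19 log2, miR-92a-3p by 0.35 ± 0.21 and miR-32-5p by -1.58 ± 0.54 (limma adjusted p 0.134, 0.231 and 0.110). miR-32-5p stood at -3.52 to -3.05 log2 in controls and at -3.91, -6.46, -5.30 and -3.77 on smoke arrays 1 to 4. The same arrays, 2 and 3, were highest for miR-25-3p (0.41 and -0.03 log2 against -0.72 to -0.38 on the other 6 arrays). Over the 211 miRNAs with a sequence the 4 weeks difference had a Pearson correlation with GC content of 0.21 (Spearman 0.18), across miRNAs that share the same arrays and are not replicates. The median difference was 0.00041 log2 for 42 miRNAs of at most 40% GC, 0.26 for 132 of over 40 to 55% and 0.23 for 37 of over 55%. With a GC correction 15 of 211 passed, all higher, and all 10 of the 12 that have a sequence were among them.

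Of 41 precursors with both arms tested, 22 had arms of the same sign. miR-31, miR-342, miR-142 and miR-133a were among these, and miR-30e, miR-34b and miR-141 among those that parted. miR-30e-5p differed by -0.81 ± 0.31 log2 and miR-30e-3p by 0.27 ± 0.16; miR-141-3p by -0.93 ± 0.48 and miR-141-5p by 0.19 ± 0.11. miR-30e-5p stood at 0.28 to 0.53 log2 on the controls and at 0.14, -1.25, -0.81 and 0.16 on smoke arrays 1 to 4.

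A fit over all 31 arrays, in which the 8 groups share 1 spread, gave 108 calls of 273 at 4 weeks, 77 higher (28.2%) and 31 lower (11.4%), and the 12 above were among them. The smoke arrays of 4 weeks varied more than any other group, so the shared spread understates theirs. In that fit without smoke arrays 2 and 3 there were 17 calls, all higher, and 10 of the 12 were among them, all but miR-223-3p and miR-182-5p. miR-34a-5p and miR-429-3p also passed in it. Among the 254 miRNAs tested with the 8 arrays, 95 passed only with all 31 arrays, of which 64 were higher and 31 lower. The largest of the higher ones were both arms of miR-342, miR-155-5p, miR-690, miR-672-5p, miR-1224-5p, miR-1904 and miR-532-3p (0.71 to 0.86 log2), and the largest of the lower ones miR-32-5p, miR-193-3p, miR-205-5p, miR-133a-5p, miR-144-3p, miR-142-3p, miR-33-5p and miR-136-5p (-1.58 to -1.12 log2). None of these 16 passed in it without smoke arrays 2 and 3.

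miR-193-3p, which has been studied as a growth suppressor, stood at -1.48 to -1.14 log2 in controls and at -1.91, -4.27, -2.95 and -1.92 on smoke arrays 1 to 4. Every smoke array was lower. The difference was -1.48 ± 0.47 log2 with the 8 arrays (limma adjusted p 0.110) and -0.63 ± 0.11 (0.0209) without smoke arrays 2 and 3. miR-136-5p, from the imprinted Dlk1-Dio3 region, stood at -5.36 to -4.60 log2 in controls, at the floor on smoke arrays 2 and 3 and at -5.48 and -5.55 on arrays 1 and 4. miR-33-5p, from an intron of Srebf2 and known for cholesterol transport, stood at -4.89 to -3.79 log2 in controls and at -4.93, -6.74, -6.22 and -4.95 on smoke arrays 1 to 4.

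**Figure D4:**
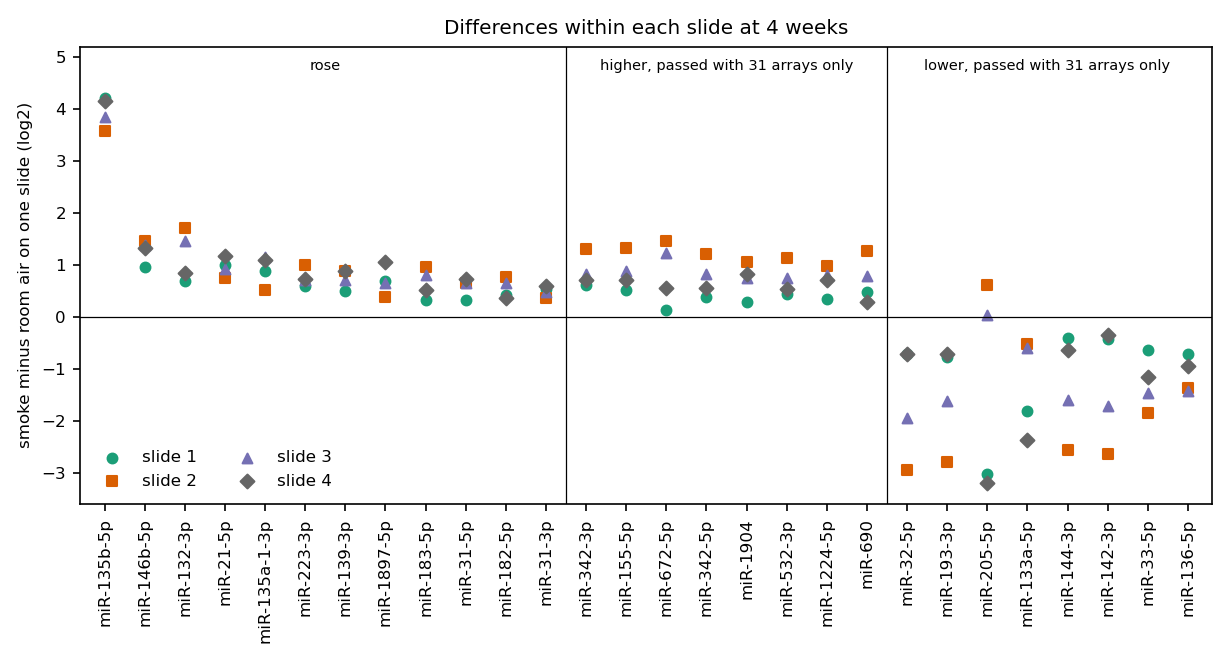
Smoke minus control within each of the 4 slides (y axis, log2; 1 smoke and 1 control array a slide) for the 12 miRNAs that rose and the 8 largest higher and 8 largest lower miRNAs that passed only with all 31 arrays (x axis). The 12 are above 0 on every slide, while for miR-32-5p, miR-193-3p, miR-144-3p and miR-142-3p slides 2 and 3 lie far below slides 1 and 4, and for miR-205-5p and miR-133a-5p slides 1 and 4 are the low ones.

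Whether the smoke effect at 4 weeks differed from that of longer exposure was tested on all 31 arrays as the 4 weeks difference minus the mean of the differences at 6, 8 and 12 weeks. The 4 weeks arrays enter this comparison and the one above, so the results are not independent. Of 273 miRNAs 49 were more positive at 4 weeks (17.9%) and 11 more negative (4.03%), and the median was 0.20 log2. Single 4 weeks arrays moved the limma count widely. It was 0 without control array 4 (87 at an unadjusted p under 0.05) and 0 without smoke array 2 (69), 1 without smoke array 3, 14 without control array 1, 135 without smoke array 1 and 146 without smoke array 4. Without smoke arrays 2 and 3 together it was 1, miR-721, which lies at or near the floor. With no scaling between arrays it was 0 (63 at an unadjusted p under 0.05).

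Of the 12 miRNAs that rose at 4 weeks, 3 passed this test, none in all alternatives. The effect of miR-21-5p was smaller at 4 weeks, 0.97 against a later mean of 1.27 log2 (-0.31 ± 0.10, limma adjusted p 0.0467), and passed in 15 of 48 alternatives. The effect of miR-183-5p was larger, 0.65 against 0.30 (0.36 ± 0.13, 0.0472), and passed in 11 of 48. miR-135b-5p stood at 3.95 log2 at 4 weeks and at a mean of 4.50 later (0.0352, passing in 31 of 48), but these effects are set against the floor at 4 weeks, and the call was lost with the higher floor. For miR-146b-5p the difference was 0.06 ± 0.09 log2 (0.598), with effects of 1.28, 1.41, 0.85 and 1.42 log2 at 4, 6, 8 and 12 weeks. miR-132-3p went from 1.18 at 4 weeks to 0.83, 0.78 and 0.74 log2 at 6, 8 and 12 weeks without passing (0.39 ± 0.20, 0.117), and miR-223-3p from 0.76 to 0.44, 0.43 and -0.25 (0.55 ± 0.32, 0.172).

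Among the 10 miRNAs with the lowest p, miR-449a-5p, of multiciliated cells, had the largest difference (-1.01 ± 0.21 log2, limma adjusted p 0.0205). At 4 weeks it differed by -0.09 ± 0.18 log2, and at 6, 8 and 12 weeks by 0.86 ± 0.18, 0.39 ± 0.18 and 1.52 ± 0.20. On the 4 weeks arrays it ran from -2.68 to -2.48 log2 in controls and from -2.97 to -2.44 in smoke, so the groups overlapped. miR-34c-5p, with the same seed, was at -0.64 log2 at 4 weeks and 0.18, -0.02 and 0.27 later (-0.79 ± 0.21, 0.0270). The other 8 were more positive at 4 weeks. miR-690 (0.97 ± 0.24), miR-365-3p (0.66 ± 0.18), miR-99a-5p (0.60 ± 0.14) and miR-100-5p (0.59 ± 0.15) led them, beside miR-151-5p, miR-195-5p, miR-505-3p and miR-721.

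**Figure D5:**
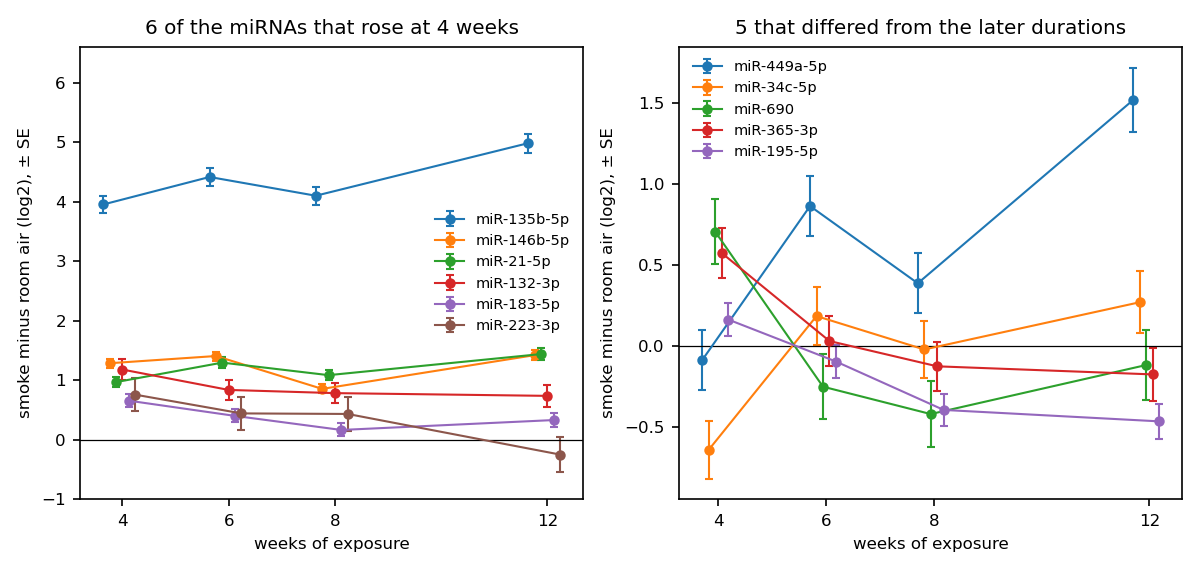
Smoke minus control (y axis, log2, with the SE of the fit over all 31 arrays) at 4, 6, 8 and 12 weeks (x axis) for 6 miRNAs that rose at 4 weeks (left) and 5 whose effect at 4 weeks differed from the mean of the later durations (right). miR-135b-5p stays near 4 to 5 log2 at all durations, and miR-449a-5p is near 0 at 4 weeks and at 1.52 log2 at 12 weeks.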

How the data were processed

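Lung miRNA was measured on 31 Agilent one-colour mouse miRNA arrays, 8 of them of 4 weeks. The deposited scanner files hold spot intensity after Feature Extraction 10.7.3.1, per the file headers; the authors' deposited series table holds log2 values of unstated scaling and centring (array medians 2.71 to 2.85, correlation with the scanner values 0.981 to 0.986).

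Control and outlier spots were left out, spots averaged per probe, and a probe counted as detected with 50% of its spots above background. Scaling used the 75th percentile of 385 probes, those detected on every array; values were floored at -6.74 log2 and summarised by each miRNA's brightest probe. Groups follow the sample titles. R 4.3.3 and limma 3.58.1 tested 254 miRNAs on 8 arrays and 273 on 31, each with Benjamini-Hochberg adjustment over all tested. On simulated data of the 4 weeks comparison (254 miRNAs) 5, 8, 9 and 10 of 10 changes of 0.5, 1, 2 and 4 log2 were recovered with 0 false calls. For the comparison with later durations (273) 6, 8, 10 and 10 were recovered, with 2 false calls. The simulated noise was independent between miRNAs, equal in all groups and without a floor. In the real arrays deviations are shared across miRNAs and the groups differ in spread, so these counts do not give the false calls among the real ones.

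Named miRNAs were up to 15 rises and 10 falls that passed with 8 arrays, the 8 largest rises and 8 largest falls that passed only with 31, list members that passed in either or, where none did, up to 3 by mean level, the 10 of lowest p against later durations, and miR-21-5p. Others named were chosen after their values were seen. Members and lists were chosen with earlier results of these data known. Alternatives covered scaling, background, probe summary, floor, filter, the deposited table, array weights, GC content, slide as a block and left-out arrays; leaving out control arrays 1 and 4 was added after seeing the data, as was the fit over 31 arrays without smoke arrays 2 and 3. The normexp correction (offset 50) used the median spot signal. Same-numbered smoke and control arrays lie on the same slide, and their deviations correlated at 0.04, 0.30, 0.28 and 0.35 for numbers 1 to 4 over 254 miRNAs. Pairs on different slides ran from -0.36 (smoke array 3 with control array 4) to 0.35 (smoke array 1 with control array 4). The deviations of smoke arrays 1 and 4 themselves correlated at 0.96, so these correlations are not independent of each other. Whether a shared slide raised them was not tested.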

Additional observations from a re-analysis of the deposited data

Results flagged for a closer look

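Dixon's test on groups of 4 arrays singles out about 1 in 20 groups by chance. It was run on the smoke and the control group of every named miRNA with any spread there, so several such arrays are due by chance. In all, 9 single arrays stood apart in a named miRNA. On smoke arrays these were miR-135a-1-3p on array 3 (-4.69 log2), miR-1897-5p on array 2 (-5.63) and miR-505-3p on array 2 (-6.08). On control array 4 they were miR-1897-5p (-6.36), miR-1904 (-5.48), miR-34b-5p (0.52) and miR-93-5p (-1.31). On control array 2 they were miR-24-2-5p (-1.89) and miR-29a-5p (-3.70).

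The smoke effect at 4 weeks differed from the mean effect at 6, 8 and 12 weeks, by the limma contrast over 31 arrays, for miR-449a-5p (-1.01 log2) and miR-34c-5p (-0.79), which were more negative at 4 weeks. It was more positive for miR-690 (0.97), miR-365-3p (0.66), miR-99a-5p (0.60), miR-151-5p (0.59), miR-100-5p (0.59), miR-195-5p (0.48), miR-505-3p (0.34) and miR-721 (0.26). miR-721 was at the floor on all 4 weeks control arrays and on smoke array 3.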

How the results depend on the processing

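The 12 calls at 4 weeks became 3 with quantile scaling, 1 with no scaling, 0 with normexp (limma, 9 at an unadjusted p under 0.05), 3 with the scanner's sum per miRNA, 6 with a floor 4 times higher, 28 with array weights, 108 with all 31 arrays, 31 without smoke arrays 2 and 3, 56 without these and control array 4, and 2 without control arrays 1 and 4. With one array left out the range was 3 to 19. With slide as a replicate block there were 21 calls, and 19 with the block and a GC correction. Same-numbered arrays share a slide, and whether the numbers pair them in any other way is not stated in the sample titles. Normexp turned the sign of miR-182-5p (-0.97 log2), miR-139-3p (-0.88), miR-31-3p (-0.87), miR-1897-5p (-0.86), miR-135a-1-3p (-0.78), miR-132-3p (-0.72), miR-183-5p (-0.46) and miR-31-5p (-0.27), and, against later durations, of miR-721 (-1.20), miR-690 (-0.081) and miR-505-3p (-1.14). The cause was not tested. The median over all 254 moved from 0.22 log2 to 0.12 with the percentile of all probes, 0.14 with no scaling, 0.11 without smoke array 2, 0.09 with quantile scaling, 0.058 with array weights, 0.047 without smoke arrays 2 and 3, 0.016 without control array 4 as well, 0.011 with the higher floor and -0.70 with normexp, under which the leukocyte and epithelial medians were -0.44 and -0.74.

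The 60 calls against later durations became 38 with the percentile of all probes, 0 with no scaling (63 at an unadjusted p under 0.05), 23 with normexp, 27 with the scanner's sum, 26 with the higher floor, 2 with no filter, 10 with array weights, 33 with the GC correction and 30 with block and GC; the replicate block alone gave 40. Without smoke arrays 2 and 3 there was 1, likewise without control array 4 as well, and without control arrays 1 and 4 there were 0 (55 at an unadjusted p under 0.05). With one array left out the range was 0 to 146. Beyond the 4 weeks arrays named in the results, the count moved past 1.5 times without control array 2 (93), 3 (36) or 4 (38) or smoke array 1 (35) or 3 (37) of 6 weeks, control arrays 1 to 4 (36, 38, 35, 36) or smoke array 2 (36), 3 (36) or 4 (102) of 8 weeks, and control array 2 (37), 3 (36) or 4 (36) or smoke array 1 (28) or 2 (28) of 12 weeks. Signals near background limit 7 of the 12 rises.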
